A study of Mus musculus with 2 samples.

Results

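The genes described here are the 10 genes of the mouse MHC class II pathway that make, load or switch on the class II molecule: H2-Aa, H2-Ab1, H2-Eb1, Cd74, H2-DMa, H2-DMb1, H2-DMb2, H2-Oa, H2-Ob and Ciita. They were taken by symbol from gene tables with 43346 Ensembl genes, and all 10 passed the filter on low values that left 12467 genes. The source was the spleen of 1 mouse, a male of strain C57BL/6J at 10 weeks of age, whose polyadenylated RNA was read as 2 libraries. The labels name these libraries technical replicates 1 and 2 of biological replicate 1 and date the second to 2015, with no treatment and no other genotype. Both libraries therefore stand for 1 animal, and every difference below is between libraries and not between conditions. The genes from H2-Oa to H2-Eb1 lie in the class II region of chromosome 17, while Cd74 lies at chr18:60803848-60812652 and Ciita at chr16:10480059-10528418, both on the plus strand (GRCm38, GENCODE M21).

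MHC class II molecules are pairs of an alpha and a beta chain that carry peptides from endosomes to the cell surface, where CD4 T cells read them. The invariant chain, made from Cd74, blocks the peptide groove of a new pair and steers it to endosomes. There H2-DM exchanges the last invariant chain fragment for peptides, H2-O restrains H2-DM, and the whole set is switched on by Ciita, a coactivator that is recruited to class II promoters. In spleen the class II molecule is known mainly from B cells, dendritic cells and macrophages.

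The libraries differed in depth by a factor of 7.23, with 27528824 expected counts in replicate 1 and 3806381 in replicate 2, and with 20093 and 14177 genes above 0. An expected count is the number of reads a gene was estimated to have, and TPM divides counts by transcript length and scales them to a fixed sum, so TPM allows levels of different genes to be set side by side. Ratios of replicate 2 over 1 were taken on counts scaled with TMM, which raised every log2 ratio by 1.26 against scaling by total counts. A call required the 95% counting interval of the ratio to lie beyond 1.5-fold as a whole. These intervals cover counting error only, and no call has a replicate check. With genes split into 10 equal bins by GC content, the median ratio went from -1.66 in the lowest bin to 2.27 in the highest. With 10 bins by transcript length it went from 1.08 in the shortest to -1.39 in the longest. The 8 erythroid markers, all called higher, had a summed TPM of 42983 in replicate 1 and of 442713 in replicate 2. Of all genes tested 28.0% were called higher. Under total counts 7 of the markers were called higher, against 14.6% of all genes tested. Most of the sum in replicate 2 was in Hba-a2, at 217252 TPM, and Hba-a1, at 195490 TPM. In replicate 1 these were at 3077 and 21651 TPM. The part of the 8 markers in the values of the class II genes was not tested.

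The surface chains and Cd74 were among the abundant mRNAs of both libraries, at rank 319 or better, while the ranks of Ciita were 3434 and 7058 and those of H2-Oa were 2784 and 2505. The 10 genes had a summed TPM of 10969 in replicate 1 and 3697 in replicate 2, which was 1.10% and 0.370% of all TPM. Of all expected counts they held 0.753% and 0.456%. In replicate 1 their order by level was H2-Aa, Cd74, H2-Ab1, H2-Eb1, H2-Ob, H2-DMb2, H2-DMb1, H2-DMa, H2-Oa and Ciita. In replicate 2 it was H2-Ab1, Cd74, H2-Aa, H2-Eb1, H2-DMb2, H2-DMb1, H2-DMa, H2-Ob, H2-Oa and Ciita. The deposited credibility intervals of TPM, whose level is not given in the sources used here, separated all neighbours in the first order. In the second they overlapped for H2-DMb2 and H2-DMb1 and for H2-DMa and H2-Ob. Ciita was lowest in both libraries, and H2-Ob moved furthest down the order.

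**Figure D1:**
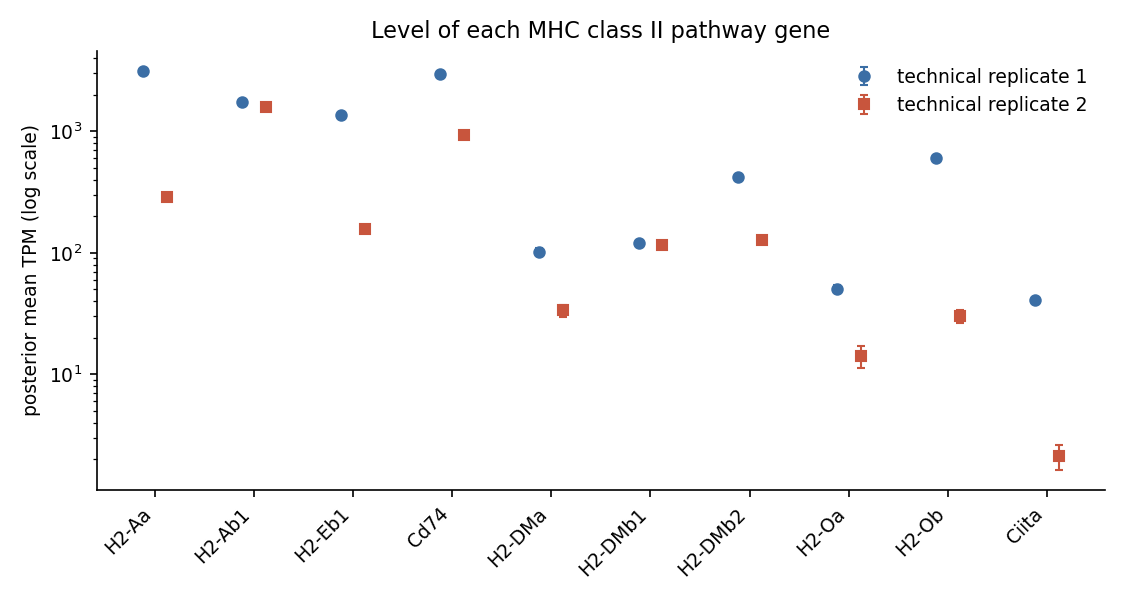
Posterior mean TPM on a log scale of each gene in technical replicate 1 (circles) and 2 (squares), with bars for the deposited credibility interval, which are shorter than the symbol for most points. H2-Ab1 and H2-DMb1 lie close together in the 2 libraries, while H2-Ob and Ciita are far lower in replicate 2.

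By counts, 5 of the 10 genes were called higher in replicate 2, against 28.0% of the 12467 genes tested, and 3 were called lower, against 32.6%. The 5 were H2-Ab1, Cd74, H2-DMa, H2-DMb1 and H2-DMb2, the 3 were H2-Aa, H2-Ob and Ciita, and H2-Eb1 and H2-Oa were called neither way. The median log2 ratio of the 10 was 0.81, against -0.27 over all genes tested. Scaled by total counts, 2 of the 10 were called higher, where 14.6% of all genes were, and 4 lower, where 58.5% were. H2-Aa, H2-Ob and Ciita were lower in replicate 2 on each scale run, and H2-DMb1 had a ratio above 0 on each, although not past 1.5-fold as a ratio of TPM. Ratios of TPM lay lower for every gene, with a median over the 10 of -1.66 against -2.10 over all genes when 1 was added to each TPM.

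**Figure D2:**
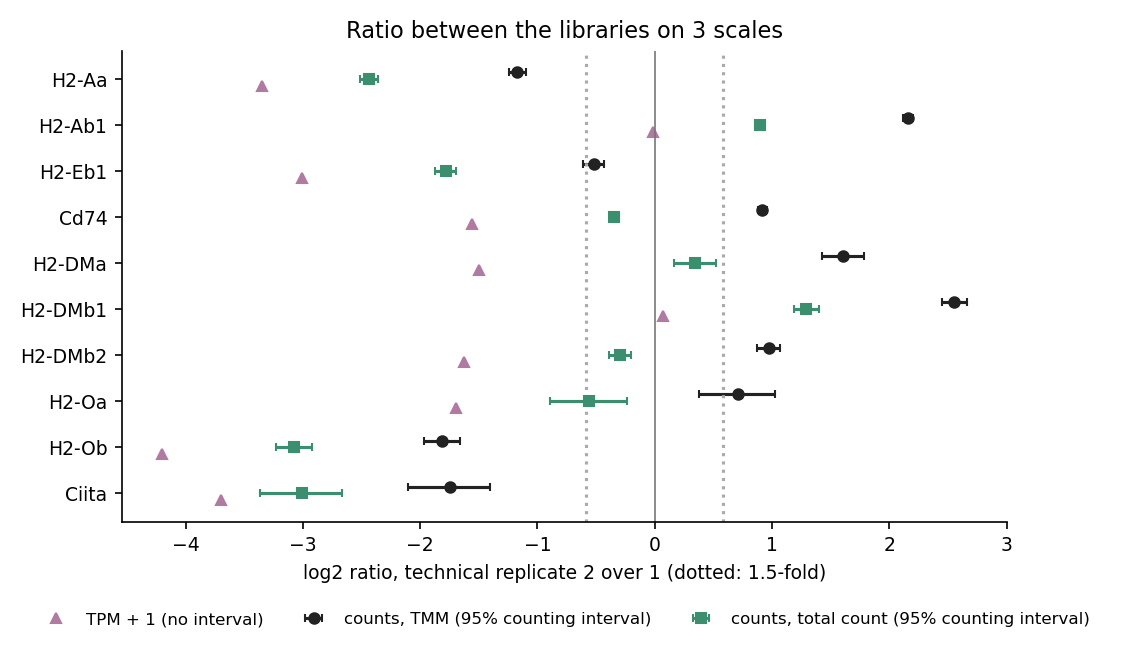
Log2 ratio of technical replicate 2 over 1 for each gene, from counts scaled with TMM (circles) or total counts (squares), both with 95% counting intervals, and from TPM with 1 added (triangles, no interval). Dotted lines mark 1.5-fold, and the order of the genes is nearly the same on the 3 scales while the position of 0 is not.

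H2-Aa encodes the alpha chain of I-A, the class II molecule that C57BL/6J mice display. It lies on the minus strand at chr17:34282744-34287823. H2-Aa had 58015 counts and 3269.6 TPM in replicate 1 and 1485 counts and 321 TPM in replicate 2, which made it rank 30 among genes above 0 in the first library and rank 204 in the second. It was thus lower in replicate 2, at a log2 ratio of -1.17 (95% counting interval -1.25 to -1.10). The transcripts behind these levels differed as well. The full-length transcript H2-Aa-201 held 97.08% of the gene's TPM in replicate 1 and 31.45% in replicate 2, whereas H2-Aa-204 held 0.05% and 68.55%. H2-Aa-204 joins exon 1 to exon 3, so its coding sequence has 519 bases in place of 768. In estimated counts H2-Aa-204 went from 19.8 (deposited posterior SD 9.60) to 894 (SD 38.9), and H2-Aa-201 from 57164 (SD 15.9) to 591 (SD 38.9). The exon it lacks is printed here because it carries that difference: exon 2 of 249 bases, or 83 codons, at chr17:34284288-34284536 (GRCm38, minus strand, from GENCODE M21), which encodes most of the alpha 1 domain of the peptide groove. The second line is the junction in H2-Aa-204, which joins base 34287682 to base 34283856 of the chromosome, with the first 20 bases of exon 3 in capitals.
H2-Aa exon 2: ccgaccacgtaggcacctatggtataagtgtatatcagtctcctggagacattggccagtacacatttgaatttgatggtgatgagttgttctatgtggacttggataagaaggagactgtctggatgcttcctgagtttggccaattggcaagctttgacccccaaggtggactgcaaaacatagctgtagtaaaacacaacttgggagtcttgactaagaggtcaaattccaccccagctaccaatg
H2-Aa-204 junction: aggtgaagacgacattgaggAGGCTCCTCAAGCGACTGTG

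Exon 2 had a GC content of 45.8%, the lowest of the 5 exons of H2-Aa-201, whose others had 58.5%, 52.1%, 57.7% and 46.4%. Whether GC content bears on the estimate for exon 2 was not tested. The 2 remaining transcripts of the gene, H2-Aa-202 and the retained-intron model H2-Aa-203, had 345 and 486 counts in replicate 1 and 0 in replicate 2.

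H2-Ab1 encodes the beta chain that pairs with the H2-Aa chain. Its coding transcript H2-Ab1-201 spans 6 exons at chr17:34263209-34269419 on the plus strand. The gene had 20653 counts in replicate 1 and 5317 in replicate 2, and 1811 and 1792 TPM, at ranks 66 and 59. Its TPM was thus nearly equal in the libraries, while its counts gave a log2 ratio of 2.16 (2.12 to 2.20). That was the second highest ratio of the 10 genes and also a call under total counts, at 0.90. Most of its TPM was assigned to H2-Ab1-203, a retained-intron model of 515 bases at the 3′ end of the gene, with 54.85% in replicate 1 and 82.07% in replicate 2. The full-length coding transcript H2-Ab1-201 held 37.87% and 17.93%, and the retained-intron model H2-Ab1-202 held 7.28% and 0. In counts H2-Ab1-203 had 6161 and 3285, or 29.8% and 61.8% of the gene, so the short length of this model weighs in its TPM. The log2 ratio of counts was 3.21 (3.15 to 3.27) for H2-Ab1-203 and 1.40 (1.33 to 1.46) for H2-Ab1-201, both called higher. These intervals leave out the error of dividing shared reads among transcripts. The first exon of H2-Ab1-203 is printed because it holds what sets this model apart from the coding transcript: 191 bases of intron 4 in lower case, followed by exon 5 of 24 bases in capitals (chr17:34268270-34268484, GRCm38, plus strand).
H2-Ab1-203 first exon: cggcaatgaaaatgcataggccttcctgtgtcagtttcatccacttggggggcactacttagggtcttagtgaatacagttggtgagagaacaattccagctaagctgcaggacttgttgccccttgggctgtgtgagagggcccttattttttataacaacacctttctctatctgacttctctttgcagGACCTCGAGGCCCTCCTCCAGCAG

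The retained bases had a GC content of 46.6%, and the 6 exons of H2-Ab1-201 ranged from 49.2% to 70.8%. Beyond these 191 bases the model consists of exon 5 and part of the last exon, which the coding transcript also holds. The deposited posterior SD of its count was 68.8 in replicate 1 and 30.8 in replicate 2.

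**Figure D3:**
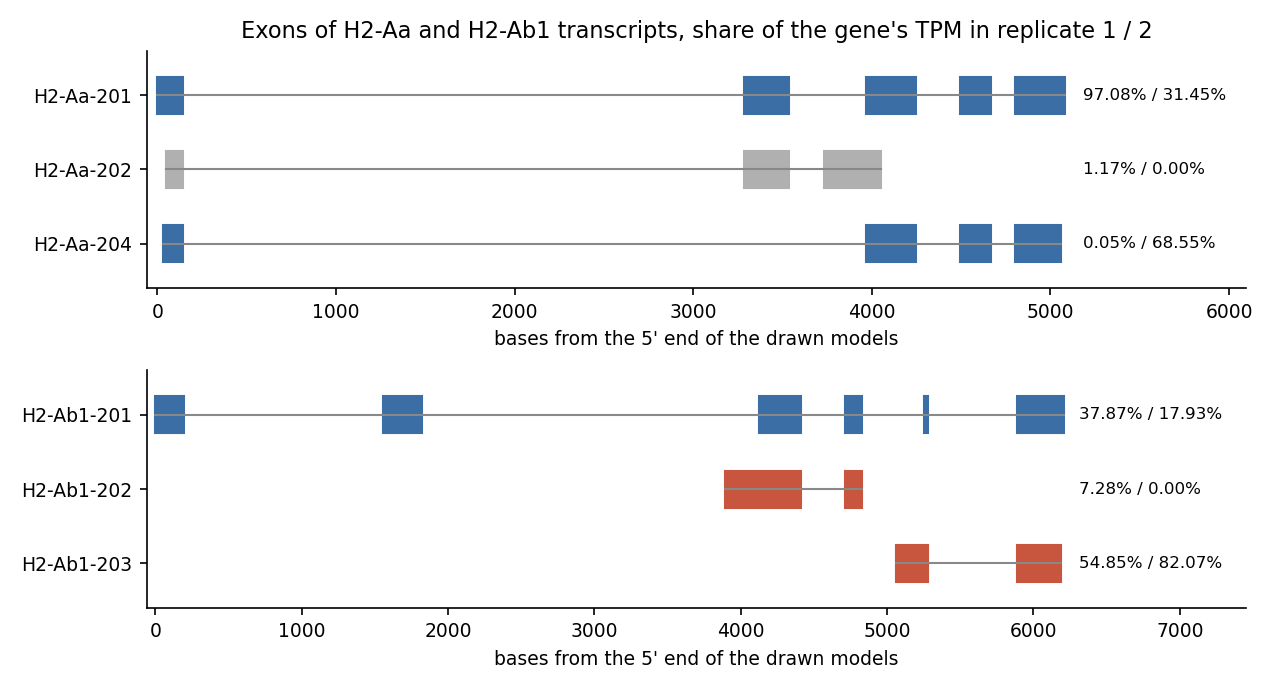
Exon models of H2-Aa (top) and H2-Ab1 (bottom) by distance in bases from the 5′ end, with coding transcripts in blue, retained-intron models in red and a processed transcript in grey; numbers give the share of the gene's TPM in replicate 1 and 2. H2-Aa-204 lacks the second exon and goes from 0.05% to 68.55%, and H2-Ab1-203 covers only the 3′ part of its gene. H2-Aa-203 is not drawn because its GENCODE M21 model has 3223 bases against 646 in the deposited table, while the models drawn differ by at most 4 bases.

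H2-Eb1 (chr17:34305867-34316674, plus strand) encodes the beta chain of I-E, the other mouse class II molecule. C57BL/6J mice carry a defective gene for its alpha chain and make no I-E at the surface, although the beta chain mRNA is made. H2-Eb1 had 26927 counts and 1417 TPM in replicate 1 and 1083 counts and 176 TPM in replicate 2, at ranks 76 and 319. Its log2 ratio of -0.52 (-0.61 to -0.43) was not past 1.5-fold, and it was called lower under total counts, at -1.78. H2-Ea-ps, the locus of the alpha chain, had 1 count in replicate 1 and 0 in replicate 2. H2-Eb2, a further beta chain gene of the region, had 2750 and 28 counts and 71.2 and 2.30 TPM, and was lower at -2.50.

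The balance of the chain mRNAs differed between the libraries. H2-Aa was 1.81 times H2-Ab1 in TPM in replicate 1 (95% counting interval 1.78 to 1.83) and 0.179 times in replicate 2 (0.169 to 0.190), a 10.1-fold difference. H2-Eb1 over H2-Ab1 was 0.782 (0.768 to 0.797) and 0.0981 (0.0918 to 0.105), 7.98-fold apart. H2-Eb1 over H2-Aa was 0.433 (0.427 to 0.440) and 0.547 (0.506 to 0.592), closer but with intervals that did not overlap. These sizes rested on the transcripts counted. With protein-coding transcripts alone, an alternative chosen after seeing the data, H2-Aa over H2-Ab1 was 4.63 and 0.999, and with the full-length coding transcript of each gene alone it was 4.63 and 0.314. H2-Aa over H2-Ab1 was lower in replicate 2 in each of these. With the full-length coding transcripts alone, H2-Eb1 over H2-Ab1 was 2.07 and 0.547 and H2-Eb1 over H2-Aa was 0.446 and 1.74, so that the first was lower and the second higher in replicate 2.

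**Figure D4:**
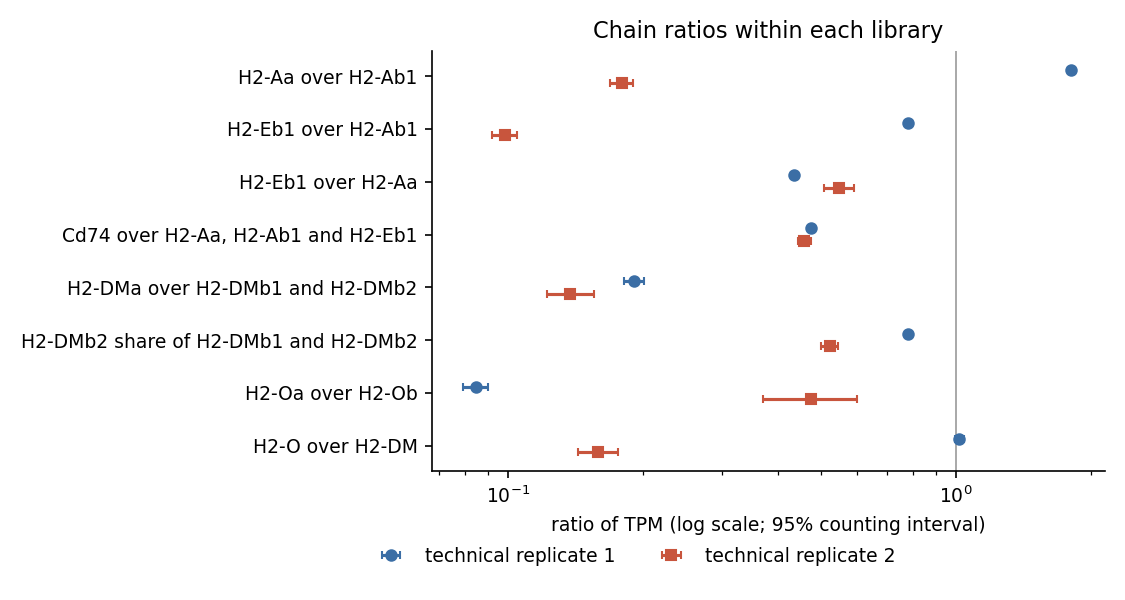
Ratios of TPM between chains within technical replicate 1 (circles) and 2 (squares) on a log scale, with 95% counting intervals; the grey line marks equal TPM. H2-Aa over H2-Ab1, H2-Eb1 over H2-Ab1, H2-Oa over H2-Ob and H2-O over H2-DM are far apart between the libraries, and Cd74 over the 3 surface chains is nearly the same.

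Cd74 encodes the invariant chain. It had 61445 counts and 3081 TPM in replicate 1 and 6688 counts and 1048 TPM in replicate 2, which made it rank 31 and rank 92. Its counts gave a log2 ratio of 0.92 (0.88 to 0.95), called higher, but total counts gave -0.35 and TPM -1.56. Cd74 belongs to the second highest of the 10 GC bins, where the median ratio was 1.34, and with the GC trend removed its ratio was -0.49. Set against the summed TPM of H2-Aa, H2-Ab1 and H2-Eb1, Cd74 was 0.474 (0.469 to 0.479) in replicate 1 and 0.458 (0.443 to 0.473) in replicate 2. The invariant chain and the sum of the surface chains thus kept nearly the same proportion in TPM. This rested on the transcripts counted and on length correction. With protein-coding transcripts alone, which leaves out H2-Ab1-203, the proportion was 0.584 and 1.28. With the full-length coding transcripts alone it was 0.538 and 1.72, and without length correction 0.582 and 0.848. The shorter transcript Cd74-201 led in both libraries with 92.12% and 98.19%. Cd74-202, which has an extra exon of 192 bases that encodes a protease inhibitor domain, held 7.87% and 1.81%, or 5657 counts (posterior SD 95.5) and 142 (SD 24.7). Its log2 ratio of -1.20 (-1.45 to -0.96) was below that of Cd74-201, at 1.03 (0.99 to 1.06), and scaling moves both alike. Here too the intervals leave out the error of dividing shared reads among transcripts.

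H2-DM is a pair of an alpha chain from H2-DMa and a beta chain from either H2-DMb1 or H2-DMb2, and it catalyses peptide exchange in endosomes. H2-DMb1 and H2-DMb2 are close copies. Their coding sequences of 783 bases each differed at 32 bases, an identity of 95.9%, and the longest identical stretch ran over 221 bases. Of all 36-base windows of H2-DMb1-201, 34.5% occur unchanged in H2-DMb2-201, and of all 75-base windows 19.1%. The read length of these libraries is not given in the sources used here. They were the only members with counts that were not whole, and the deposited posterior SD of each was 7.93 counts in replicate 1 and 1.00 in replicate 2. The 60 coding bases with the most differences show where reads can separate them, with the 17 differing bases in capitals (coding bases 208 to 267, chr17:34155585-34155644 for H2-DMb1 and chr17:34147803-34147862 for H2-DMb2, GRCm38, plus strand).
H2-DMb1: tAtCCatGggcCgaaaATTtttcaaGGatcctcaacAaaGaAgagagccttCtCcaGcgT
H2-DMb2: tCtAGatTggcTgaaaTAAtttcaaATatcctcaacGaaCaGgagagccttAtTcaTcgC

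H2-DMb1 had 2842 and 963 counts and 123 and 129 TPM, at ranks 1002 and 431. Its log2 ratio of 2.56 (2.45 to 2.66) was the highest of the 10 genes. H2-DMb2 had 8935 and 1009 counts and 438 and 142 TPM, with a log2 ratio of 0.97 (0.87 to 1.06), also called higher. H2-DMb2 thus made up 78.1% of the beta chain TPM in replicate 1 (95% counting interval 77.3% to 78.9%) and 52.3% in replicate 2 (50.02% to 54.6%). The deposited tables place transcript H2-DMb1-202, a retained-intron model with 199.7 counts in replicate 1 and 0 in replicate 2, under H2-DMb2, whereas GENCODE M21 places it under H2-DMb1. Moving it to H2-DMb1, a choice made after seeing the data, put the share at 0.697 of the beta chain TPM in replicate 1 and left replicate 2 as it was.

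H2-DMa (chr17:34119541-34139101, plus strand) had 1769 and 311 counts and 107 and 37.3 TPM, at ranks 1197 and 1309. Its log2 ratio was 1.61 (1.43 to 1.78), called higher, but 0.35 and not called under total counts. With the GC trend removed it was 0.73 and also not called, and as a ratio of TPM it was -1.52. In replicate 1 the retained-intron model H2-DMa-202 held 55.27% of the TPM with 519 counts, and the coding transcript H2-DMa-201 held 44.73% with 1250. In replicate 2 all 311 counts went to H2-DMa-201. H2-DMa-201 alone had 47.9 TPM in replicate 1 and 37.3 TPM in replicate 2, so most of the difference in the gene's TPM was in the retained-intron model. The alpha chain mRNA was 0.191 times the beta chain mRNAs in TPM (0.181 to 0.201) in replicate 1 and 0.138 times (0.122 to 0.155) in replicate 2, and H2-DMa was below both beta chain genes in each library. That ratio was lower in replicate 2, also with posterior mean TPM, at 0.190 and 0.139, and per annotated length, at 0.183 and 0.139. It was higher there with full-length coding transcripts alone, at 0.0990 and 0.138, and with protein-coding transcripts alone, at 0.0933 and 0.138. Without length correction it was close in the libraries, at 0.150 and 0.158. Summed, the 3 H2-DM genes had 668 and 308 TPM. Their log2 ratio by counts was 1.55 (1.48 to 1.61) with TMM and 0.29 (0.22 to 0.35), not past 1.5-fold, under total counts.

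H2-O, the partner that restrains H2-DM and is known mainly from B cells, is made from H2-Oa and H2-Ob. H2-Ob (chr17:34238903-34254414, plus strand) encodes its beta chain and had 21538 counts and 627 TPM in replicate 1 but 353 counts and 33.2 TPM in replicate 2, at ranks 169 and 1435. Its log2 ratio of -1.81 (-1.97 to -1.66) was the lowest of the 10 genes, with an interval that overlaps that of Ciita. H2-Oa (chr17:34092340-34095234, plus strand), the alpha chain gene, had 936 and 88 counts and 53.0 and 15.7 TPM, and its ratio of 0.71 (0.37 to 1.02) was called neither way. The chains thus stood further apart in replicate 1, where H2-Oa was 0.0845 times H2-Ob (0.0791 to 0.0902), than in replicate 2, where it was 0.473 times (0.371 to 0.600). With protein-coding transcripts alone these were 0.105 and 0.961. H2-Ob-201 led in both libraries with 64.62% and 49.25%. The rest was mostly the retained-intron model H2-Ob-204 in replicate 1, at 31.97% against 5.91%, and the processed transcript H2-Ob-205 in replicate 2, at 44.83% against 2.41%. H2-Oa-202, a retained-intron model, held 18.1% and 0. The summed H2-O genes were 1.02 times the summed H2-DM genes in TPM in replicate 1 (0.996 to 1.04) and 0.159 times in replicate 2 (0.143 to 0.176), a 6.41-fold difference.

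Ciita encodes the transactivator and was the least abundant of the 10. It had 4129 counts and 42.6 TPM in replicate 1 and 71 counts and 2.36 TPM in replicate 2, at ranks 3434 and 7058. Its log2 ratio was -1.75 (-2.10 to -1.41), called lower, and -3.01 under total counts. Ciita has the longest mRNA of the set, at 5254 bases, and belonged to the bin of longest transcripts, where the median ratio was -1.39. Its GC content of 55.2% put it in GC bin 8 of 10, where the median was 0.63, and with the GC trend removed its ratio was -2.62. A single transcript is listed for Ciita and for H2-Eb1.

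**Figure D5:**
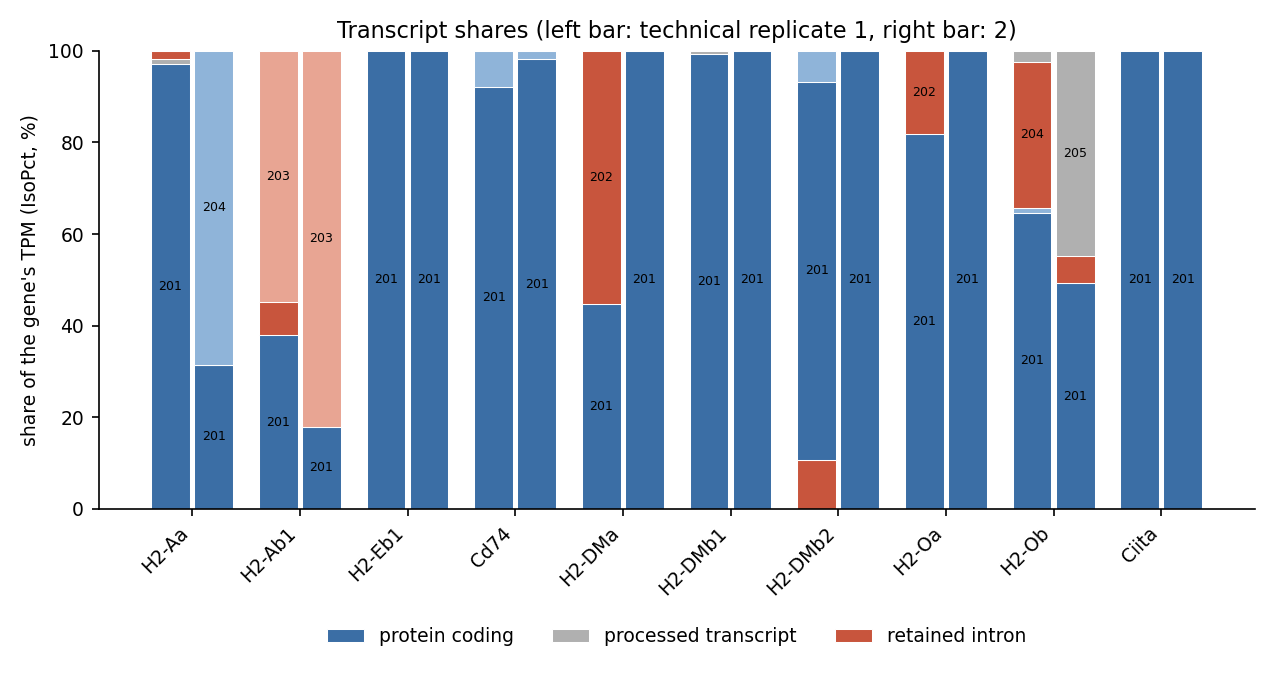
Share of each gene's TPM held by its transcripts, as stacked bars in percent for technical replicate 1 (left) and 2 (right), with coding transcripts in blue shades, retained-intron models in red shades and processed transcripts in grey. The leading transcript changes for H2-Aa and H2-DMa, and H2-Ab1-203 leads H2-Ab1 in both.

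Across the set, 25 transcripts were listed, all 25 above 0 in replicate 1 and 15 in replicate 2. Of the 10 retained-intron or processed transcripts among them, 10 were above 0 in replicate 1 and 3 in replicate 2, namely H2-Ab1-203, H2-Ob-204 and H2-Ob-205. Of the 8 genes with more than 1 transcript, 6 had the same leading transcript in both libraries, and H2-Aa and H2-DMa did not. With 7.23 times fewer counts, a transcript at 0 in replicate 2 is one not detected at this depth. For H2-DMa-202, with 519 counts in replicate 1, the upper 95% limit of the log2 ratio that 0 counts in replicate 2 allow was -3.01, and for H2-Ab1-202, with 1103 counts, it was -4.10. These limits cover counting error only and not the error of dividing shared reads among transcripts.

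Read against genes of like GC content, the set kept a wide spread. The log2 ratio minus the median of the gene's GC bin was 2.30 for H2-DMb1, 1.90 for H2-Ab1, 0.98 for H2-DMa and 0.72 for H2-DMb2, above their bins. It was -0.42 for Cd74, -0.63 for H2-Oa, -0.87 for H2-Aa, -0.98 for H2-Ob, -1.15 for H2-Eb1 and -2.37 for Ciita, below them. H2-Aa and H2-Ab1, whose products pair, stood at GC contents of 50.5% and 53.5%. These are plain means over the transcripts of a gene, for H2-Ab1 with the retained-intron models H2-Ab1-202 and H2-Ab1-203 included. In the coding transcript H2-Ab1-201 every exon but the last had a GC content of 57.8% or more. That transcript alone had a log2 ratio of 1.40 and was not set against a GC bin of its own.

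Class II promoters are known to share an X box, bound by the RFX complex, and a Y box, bound by NF-Y. In RefSeq promoter windows (GRCm38.p6, 250 bases before to 50 after a start), 8 entries matched 7 of the genes, and H2-Ab1, Cd74 and Ciita had none. The letters GNAAC, followed by ATTGG after 24 to 32 bases on the gene's strand, were searched in the 250 bases before the start, with motif and distance chosen after seeing these sequences. They occurred in H2-Aa, H2-DMb1, H2-Eb1, H2-Oa and H2-Ob and not in the windows of H2-DMb2 or H2-DMa. The windows of H2-DMa begin at chr17:34122582 and chr17:34125268, downstream of its GENCODE M21 gene start at 34119541. That of H2-DMb2 begins at chr17:34144999, downstream of its gene start at 34143307. The bases before those gene starts were not searched. Of all 32851 promoters 0.642% held the pair on that strand and 1.28% on either strand, while ATTGG alone was in 33.8% and GNAAC alone in 79.6% on either strand. The stretches are printed to show this shared feature, with both motifs in capitals, on the gene's strand. They lie at chr17:34287863-34287908 for H2-Aa (minus strand) and, on the plus strand, at chr17:34305772-34305816 for H2-Eb1, chr17:34153093-34153138 for H2-DMb1, chr17:34092299-34092344 for H2-Oa and chr17:34238814-34238856 for H2-Ob.
H2-Aa promoter: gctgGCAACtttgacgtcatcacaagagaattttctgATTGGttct
H2-Eb1 promoter: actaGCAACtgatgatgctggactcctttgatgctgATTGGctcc
H2-DMb1 promoter: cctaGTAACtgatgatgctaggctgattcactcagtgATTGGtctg
H2-Oa promoter: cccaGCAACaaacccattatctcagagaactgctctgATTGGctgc
H2-Ob promoter: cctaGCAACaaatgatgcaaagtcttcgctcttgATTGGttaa

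The motif pair was 25 to 28 bases apart in these 5 genes, and ATTGG lay 43 to 61 bases before the start. A match is a description of the sequence and no measure of binding. The 5 genes with the pair included the highest ratio of the set, that of H2-DMb1, and the lowest, that of H2-Ob.

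The factors that assemble on these promoters differed among themselves. In this and the lists that follow, counts of calls stand against 28.0% of all genes tested called higher and 32.6% lower, or 14.6% and 58.5% under total counts. Of 7 enhanceosome genes, 2 were called higher, Rfxank at 2.75 and Rfxap at 1.26, and 3 lower, Nfya at -1.70, Nfyb at -1.64 and Creb1 at -2.23. Rfxank and Rfxap are subunits of RFX, the X box complex, and Nfya and Nfyb are subunits of NF-Y. The third RFX subunit gene, Rfx5, was at 0.50 and the third NF-Y subunit gene, Nfyc, at 0.09, both called neither way. Their median of 0.09 compares with -0.27 over all genes tested. Under total counts 1 of the 7 was called higher, Rfxank, and 4 lower, and 1 was also called higher with no filter on low values.

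Among 12 genes that regulate Ciita, 5 were called higher and 3 lower, with a median of 0.09. Those higher were Pax5, Usf1, Ifngr2, Spi1 and Irf1, from 3.27 for the B cell factor Pax5 to 1.46 for the interferon regulatory factor Irf1. Among those lower were the interferon signalling kinases Jak2 at -3.11 and Jak1 at -2.53. Ifngr1, a chain of the interferon gamma receptor, was at 0.08 and called neither way. Under total counts 3 of the 12 were called higher and 7 lower.

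Of 10 genes for endosomal proteolysis and invariant chain breakdown, 5 were called higher and 2 lower, with a median of 0.89. The proteases Ctsd, Lgmn, Ctsz and Ctsb and the protease inhibitor Cst3 were higher, from 2.75 for Ctsd to 1.57 for Ctsb. Ctsh, another cathepsin, was lower at -2.69, and Sppl2a, which cleaves the last membrane fragment of the invariant chain, at -2.33. Ctss, the main invariant chain protease of B cells and dendritic cells, stood at 738 TPM in replicate 1 and 126 in replicate 2, and its log2 ratio by counts was -0.07. Under total counts 4 of the 10 were called higher and 5 lower.

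Of 9 genes for class II traffic and turnover, 5 were called lower and 1 higher, with a median of -1.43. March1, the ubiquitin ligase that sends class II to degradation, was lower at -1.87, its relative March8 at -1.79 and Cd83, which opposes March1, at -1.43. The tetraspanin genes Cd53 and Cd81 were lower at -3.65 and -1.87, and Cd63 was higher at 2.30. Cd37, a tetraspanin of B cells, was at -0.70 and called neither way. Under total counts 8 of the 9 were called lower and 1 higher.

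Of 7 ligands and partners of class II or Cd74, 4 were called higher and 1 lower, with a median of 0.96. Mif, a cytokine that binds Cd74, had 89 and 1179 counts and was higher at 7.84, its relative Ddt at 2.62 and the Cd74 partner Cxcr4 at 0.96. Lag3, an inhibitory receptor for class II, was higher at 2.73, and Cd4, the coreceptor for class II, was lower at -1.27. Cd44, the signalling partner of Cd74, was at 0.64 and called neither way. Under total counts 3 of the 7 were called higher and 2 lower. The medians of these 5 lists under total counts were -1.17 for the enhanceosome genes, -1.18 for the Ciita regulators, -0.37 for endosomal proteolysis, -2.69 for traffic and turnover and -0.30 for the ligands, against -1.53 over all genes tested.

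A list of 11 neighbours in the class II region of chromosome 17, which is not all genes there, held 10 genes that were tested. Of these 8 were called higher and 1 lower, with a median of 2.11. Under total counts 5 were higher and 2 lower, and the median of their TPM ratios was -0.32. Tap2, a subunit of the peptide transporter for class I, was highest at 5.26, Psmb9 and Psmb8, subunits of the immunoproteasome, were at 2.96 and 2.26, and Tap1 was at 1.06. Col11a2, Slc39a7, Ring1 and Rxrb were higher at 3.65 to 1.88, Btnl2 was lower at -2.22, a call not made with DESeq2 size factors, and Brd2 was at -0.48. H2-Ob and H2-Aa, which lie among these genes, were lower. The 8 neighbours called higher had GC contents from 54.0% for Psmb9 to 64.0% for Col11a2. H2-Ob had 48.4% and H2-Aa 50.5%, in GC bins with median ratios of -0.84 and -0.30. The median ratio rose with GC content over all genes tested. The part of GC content in the ratios of this region was not tested.

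Markers of the cell types that present antigen also differed between the libraries. The 8 B cell markers had a summed TPM of 3389 in replicate 1 and 1279.65 in replicate 2, with 3 called higher and 5 lower, among them Cd79a and Cd79b higher and Cr2 and Ms4a1 lower. The 8 dendritic cell markers summed to 297 and 111 TPM, 2 of them called higher and 3 lower, and the 8 macrophage markers to 1070.45 and 789 TPM, 3 called each way. Most of the macrophage sum in replicate 2 was C1qa, at 569 TPM against 90.1 in replicate 1. Every other macrophage marker had a lower TPM in replicate 2. Under total counts 3 B cell markers were called higher and 5 lower, 1 dendritic cell marker higher and 5 lower, and 1 macrophage marker higher and 4 lower. No gene of these 3 lists was at 0 in either library. T cell markers summed to 761 and 149 TPM, 1 called higher and 4 lower of 8, and Trac had 0 counts in replicate 2. Of 5 spleen stroma markers tested 3 were higher and 1 lower. Under total counts 6 T cell markers were lower and none of the 8 higher, and 3 stroma markers were higher and 2 lower. The part of these markers in the class II values was not tested. Both libraries are labelled technical replicates of 1 biological replicate, so the marker differences are between libraries, and their source was not tested. In RNA from a whole organ, marker levels also do not separate the number of cells of a type from the RNA per cell.

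By distance over the 2 values of log2(TPM + 1), the coding genes nearest to H2-Aa were Rpl30, Rpl23 and Rpl10, and those nearest to Ciita were Hfe, Ctnnd1 and Tes. With 2 libraries this likeness covers only the levels in each.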

How the data were processed

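RNA-seq of polyadenylated RNA was deposited as a gene table and a transcript table for each of 2 libraries of 1 mouse spleen. Per the file headers and a deposited text file, reads were aligned to the transcriptome of mm10 with GENCODE M4; the aligner and quantifier are not given in the sources used here. The authors' expected counts divide shared reads among genes and transcripts. The deposited TPM values are corrected for effective length. Transcript shares are the deposited percent of a gene's TPM. The deposited lengths, posterior SDs and credibility bounds are an other measure, in bases, counts or TPM.

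Expected counts were rounded to whole numbers. Of 43346 genes, 12467 were tested, those with 50 or more counts over the libraries together and a mean TPM of 1 or more. TMM scaling used edgeR 4.0.16 (R 4.3.3). From the counts of a gene in the libraries, taken as a share of their sum, each log2 ratio was given a 95% interval (exact, Clopper-Pearson). A floor of 3 replaced a count of 0. Intervals of ratios between chains came from the counts in the same way, scaled by effective length. No p-value was computed. Gene coordinates, exons, GC content and sequences came from GENCODE M21 (GRCm38), in which 15 of the 25 transcripts have the deposited length. GC content and length of a gene are means over its transcripts.

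The members and gene lists were chosen with earlier results of these data known. All 10 members are named, with the 3 most abundant members of each list and those called, and the 3 nearest genes of Cd74, H2-Aa and Ciita. Some genes so chosen are left out of the text. Alternatives were DESeq2 1.42.0 size factors, total counts, other filters, thresholds and pseudocounts, removal of the GC trend over 20 bins, other length corrections and transcript subsets. Other steps ran in Python 3.11.15 (scipy 1.17.1, pandas 2.3.3, numpy 2.4.6, figures with matplotlib 3.10.9).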

Additional observations from a re-analysis of the deposited data

How the results depend on the processing

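The number of genes called higher, 5, was 2 under total counts, 3 at a threshold of 2-fold and 3 with the GC trend removed. It was 0 as a TPM ratio past 1.5-fold, also as a TPM ratio of the full-length coding transcripts alone. By counts of those transcripts alone, an alternative chosen after seeing the data, 6 were called higher, with H2-Oa added at 1.04, and 3 lower. The number called lower, 3, was 8 as a TPM ratio, also with those transcripts alone, and 4 under total counts, without the filter on low values and with the GC trend removed, where H2-Eb1 was added at -1.78, -0.80 and -1.03. Of all genes tested, a TPM ratio put 8.86% higher and 81.6% lower, the 2-fold threshold 22.9% and 25.2%, and the GC correction 27.9% and 25.2%. DESeq2 size factors changed no call of the 10. Under total counts the log2 ratio was -0.35 for Cd74, -0.29 for H2-DMb2 and -0.56 for H2-Oa, below 0 in place of above. With the GC trend removed it was -0.49 for Cd74 and -0.56 for H2-Oa. As a ratio of TPM it was -0.015 for H2-Ab1, -1.56 for Cd74, -1.52 for H2-DMa, -1.63 for H2-DMb2 and -1.75 for H2-Oa. With 1 added to TPM it was -0.015, -1.55, -1.50, -1.62 and -1.69, and with 0.1 added -0.015, -1.56, -1.52, -1.63 and -1.75, for the same 5 genes. By TPM of the full-length transcript alone, added after seeing the data, it was -1.09, -1.46, -0.36, -1.35 and -1.47. The cause was not tested.

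Of the ratios between chains, all 16 kept within their counting interval with posterior mean TPM, while 13 moved with protein-coding transcripts alone and 15 without length correction. H2-DMa over H2-DMb1 alone was 0.870 in replicate 1 and 0.289 in replicate 2. A floor of 1 count in place of 3, meant for genes with 0 counts, was not run, since none of the 10 had 0. Leaving out a replicate was not possible with 1 library on each side. No paired analysis was possible because both libraries come from 1 animal and each side holds 1 library. Replicate 2 limits precision, with 71 counts for Ciita and 88 for H2-Oa.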
